A study of Mus musculus with 6 samples.

Results

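Among the genomic positions where ATF3 was detected by ChIP-seq in mouse macrophages, 1064 of the 11888 peaks called with the standard method had their centre in a long interspersed nuclear element (LINE). They were taken from the annotation of each peak, which HOMER gives for the peak centre, by the repeat class LINE. No tag count entered this choice. There were 294 LINE peaks among 2779 in unstimulated cells, 399 among 5319 after HDL and 371 among 3790 after HDL + CpG. The macrophages were bone marrow-derived (BMDMs), grown for 6 days in M-CSF at 40 ng/ml, the growth factor that drives marrow cells to macrophages, from C57BL/6 wild-type (WT) mice aged 6 to 8 weeks and from age- and sex-matched mice lacking Atf3 (KO). Cells of both genotypes were left unstimulated, given HDL at 2 mg/ml for 6 h, or given HDL and then CpG at 100 nM for 4 h. HDL, the high-density lipoprotein, accepts cholesterol from cells, whereas CpG oligonucleotides activate the endosomal receptor TLR9. A polyclonal rabbit antibody to ATF3 (2.5 µg) pulled down the chromatin, so a KO library shows where tags gather without the protein.

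Every condition had 1 WT and 1 KO library, each pooled from the biological replicates (3 by the labels) before the lists were made. No spread between mice or cultures could be computed, and every p-value and interval below covers the counting error of these libraries only. The libraries held 37137377 to 75534584 reads. The KO library was 2.03 times as deep as its WT partner in unstimulated cells, 1.74 times with HDL and 0.960 times with HDL + CpG. Values are normalized tag counts, scaled to 10000000 tags in each library. The standard method used the WT library and no KO control to call peaks, a choice that favours high WT counts. The KOIN-corrected lists were called with the KO library as control and retain peaks with at least 2-fold more WT than KO tags. A standard peak is called kept where it overlapped a KOIN-corrected peak of its condition by at least 1 bp, and removed otherwise.

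LINEs are retrotransposons that copy themselves through an RNA intermediate. In the mouse the L1 family is still mobile. Its youngest subfamilies are among the elements named L1Md and exist as many near-identical copies. In contrast, L2, CR1 (L3) and RTE elements are ancient and have diverged from each other. A short read from a young copy can therefore often be placed at several genomic positions, and the best position of such reads was retained in these libraries. ATF3 belongs to the basic leucine zipper (bZIP) proteins, which bind DNA as dimers. With partners such as JUN it recognizes the AP-1 sequence and the cyclic AMP response element (CRE).

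The sequence under LINE peaks differed in kind, which is shown for 5 peaks of HDL-treated cells by the bases within 100 bp of the peak centre (mm9, plus strand, 5′ to 3′). The first pair are the highest-scoring removed peaks on L1 and carry no capitals. The following pair are kept peaks on L2, in which capitals mark the C/EBP-ATF sequence and the AP-1 sequence. The last is a removed peak on L2 with none of the sequences searched. Their positions, in the order shown, are chr2:98503286-98503486, chrX:122712160-122712360, chr11:53963325-53963525, chr7:108176134-108176334 and chr17:57252407-57252607, and all are intergenic.
Lrrc4c L1_Mur2: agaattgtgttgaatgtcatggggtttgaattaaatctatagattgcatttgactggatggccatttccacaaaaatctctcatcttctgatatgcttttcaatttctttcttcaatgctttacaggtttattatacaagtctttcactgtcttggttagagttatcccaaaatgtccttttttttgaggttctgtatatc
4932411N23Rik L1_Mus2: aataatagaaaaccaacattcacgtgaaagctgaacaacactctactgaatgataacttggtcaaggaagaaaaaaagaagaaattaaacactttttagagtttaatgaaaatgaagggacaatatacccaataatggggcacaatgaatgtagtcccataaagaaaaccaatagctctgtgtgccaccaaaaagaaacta
P4ha2 L2: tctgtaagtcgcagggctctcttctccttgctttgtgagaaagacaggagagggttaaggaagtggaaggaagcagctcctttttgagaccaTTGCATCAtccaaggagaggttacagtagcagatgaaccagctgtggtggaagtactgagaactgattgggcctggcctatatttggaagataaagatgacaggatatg
P2ry2 L2c: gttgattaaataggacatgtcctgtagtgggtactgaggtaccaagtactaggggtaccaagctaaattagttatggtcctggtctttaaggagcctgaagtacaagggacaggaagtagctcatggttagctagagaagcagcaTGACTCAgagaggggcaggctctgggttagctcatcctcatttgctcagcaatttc
Gm11110 L2: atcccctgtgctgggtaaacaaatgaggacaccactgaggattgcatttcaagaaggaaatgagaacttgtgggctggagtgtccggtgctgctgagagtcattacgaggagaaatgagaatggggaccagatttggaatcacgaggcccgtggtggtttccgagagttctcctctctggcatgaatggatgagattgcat

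In each condition a smaller share of LINE peaks than of all standard peaks was kept. In unstimulated cells 28 of 294 LINE peaks were kept, or 9.52% (Wilson 95% interval 6.67 to 13.4%), against 20.7% of all standard peaks. With HDL 106 of 399 were kept, or 26.6% (22.5 to 31.1%), against 54.9%. With HDL + CpG 62 of 371 were kept, or 16.7% (13.3 to 20.8%), against 29.7%. Each interval lay below the share over all peaks of its condition. Among peaks on no repeat, 34.7, 63.2 and 48.9% were kept in the same order. LINE peaks thus made up 10.6, 7.5 and 9.79% of the standard lists but 4.71, 3.71 and 6.41% of the KOIN-corrected lists, where they numbered 28 of 595, 113 of 3044 and 79 of 1232. Of these corrected LINE peaks, 0, 7 and 17 (0, 6.19 and 21.5%) overlapped no standard peak, against 3.53, 4.11 and 8.52% of all corrected peaks.

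WT and KO tags at LINE peaks were closer to each other than over all peaks. The median WT/KO ratio was 1.36 in unstimulated cells (quartiles 1.05 and 1.85), 1.64 with HDL (1.12 and 2.51) and 1.22 with HDL + CpG (0.993 and 1.85), against 1.66, 2.41 and 1.42 over all standard peaks. Reads of the WT and KO libraries were compared by an exact binomial test. Adjusted by Benjamini-Hochberg over all peaks of the condition, it called 111 LINE peaks higher in the WT library in unstimulated cells, or 37.8%, against 56.2% of all peaks. With HDL it called 196, or 49.1%, against 79.5%, and with HDL + CpG 83, or 22.4%, against 40.9%. Higher KO counts were called at 4, 6 and 9 LINE peaks (1.36, 1.5 and 2.43%), against 0.900, 0.902 and 2.85% of all peaks. Most LINE peaks therefore held a KO signal that the WT signal exceeded by less than 2-fold. Kept LINE peaks, which had passed the 2-fold filter on the same tags, had median ratios of 3.01, 3.01 and 3.09, and removed ones of 1.31, 1.33 and 1.13. At the filter itself, 25, 42 and 18 removed LINE peaks had a ratio of 2 or more over the standard peak.

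**Figure D1:**
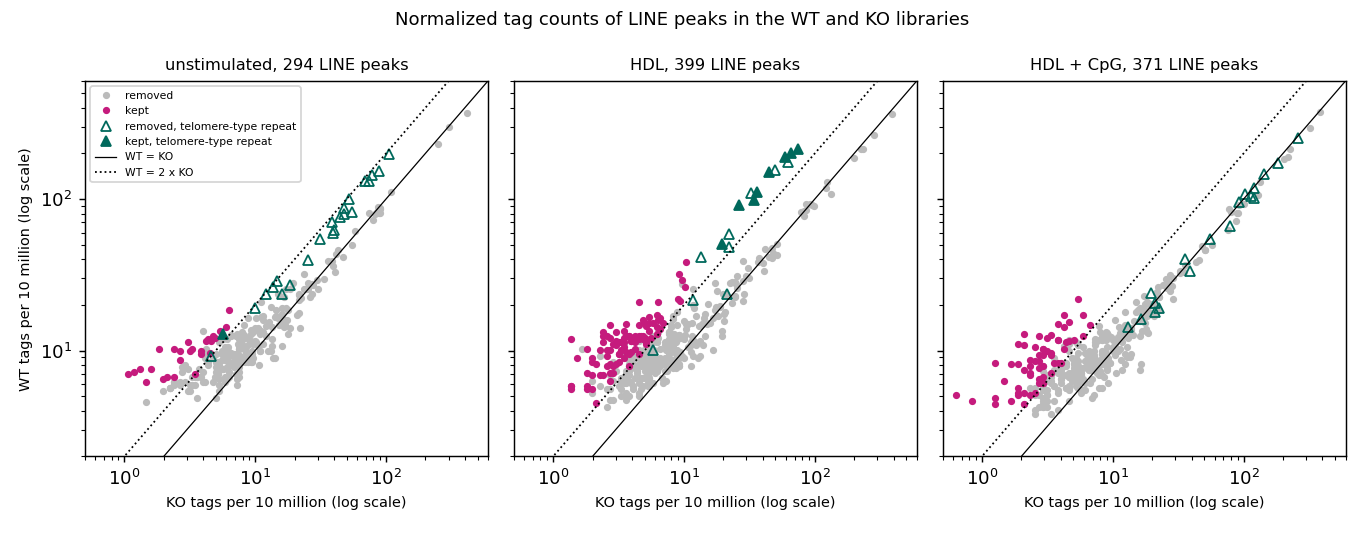
Normalized tag counts (per 10000000 tags) of each LINE peak in the KO library (x axis, log scale) and the WT library (y axis, log scale), in 3 panels for unstimulated cells, HDL and HDL + CpG. Grey points are removed peaks, pink points kept peaks and triangles peaks with a telomere-type repeat (filled where kept); the solid line marks equal tags and the dotted line 2-fold more WT tags. Most points lie between the lines, and with HDL the triangles lie mostly above the dotted line while with HDL + CpG they lie along the solid line. The HDL peak near Lrrc4c, with 141432 WT tags, lies beyond the axes.

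The L1M, L1P and HAL1, L2 and CR1 groups had larger shares kept than L1Md, L1_ and Lx in each condition. L1Md, the group that includes the youngest mouse L1 subfamilies, held the most peaks, 143 in unstimulated cells, 175 with HDL and 206 with HDL + CpG. Of these, 4, 17 and 21 were kept. The L1_ elements (names such as L1_Mus2 and L1_Mm) held 44, 57 and 44 peaks, with 0, 11 and 4 kept. Of the Lx elements, an older rodent L1 group, 10 of 70, 28 of 86 and 12 of 65 were kept. The L1M, L1P and HAL1 elements, which are older than the rodent lineage for the most part, had 10 of 27, 32 of 52 and 19 of 42 kept. On L2 there were 1 of 4, 9 of 15 and 5 of 10 kept, and on CR1 3 of 4, 6 of 8 and 1 of 1. RTE elements had 0 of 1 kept in unstimulated cells and 2 of 2 with HDL, and L1 elements of other names 0 of 1, 1 of 4 and 0 of 3. These classes were set by element name, and the shares are descriptions without a test.

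**Figure D2:**
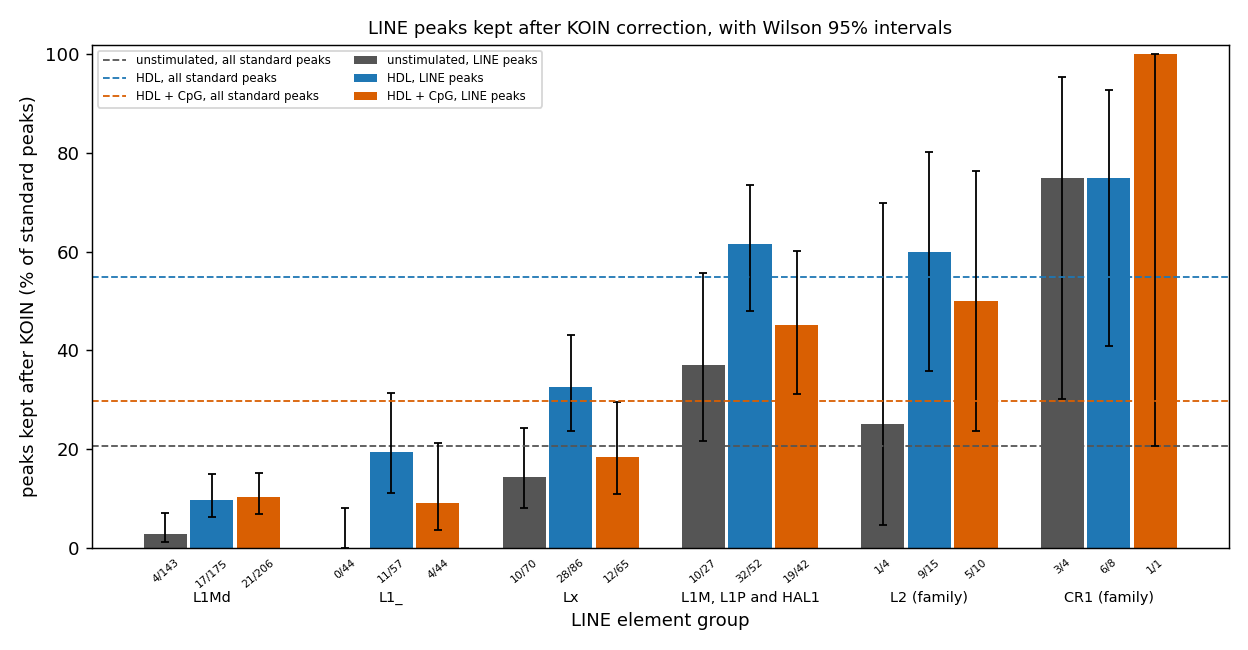
Share of standard LINE peaks kept after KOIN (y axis, percent) by element group (x axis) in unstimulated cells, HDL and HDL + CpG. Bars have Wilson 95% intervals, the counts kept and tested stand below them, and dashed lines mark all standard peaks of each condition. L1Md, the group with most peaks, had 4 of 143, 17 of 175 and 21 of 206 kept, well below the dashed lines.

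The median WT/KO ratio with HDL was 1.33 on L1Md, 1.38 on L1_, 1.82 on Lx, 2.53 on L1M, L1P and HAL1 and 3.05 on L2. In unstimulated cells these medians were 1.25, 1.20, 1.58, 1.87 and 2.03. With HDL + CpG they were 1.26, 1.03, 1.04, 2.24 and 2.39, and Lx peaks there no longer stood above L1Md. The exact binomial test called 16 of the 65 Lx peaks higher in WT and 8 higher in KO with HDL + CpG, against 47 and 2 of 86 with HDL. The median ratio on CR1 was 2.38, 2.36 and 3.41, the last from 1 peak.

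**Figure D3:**
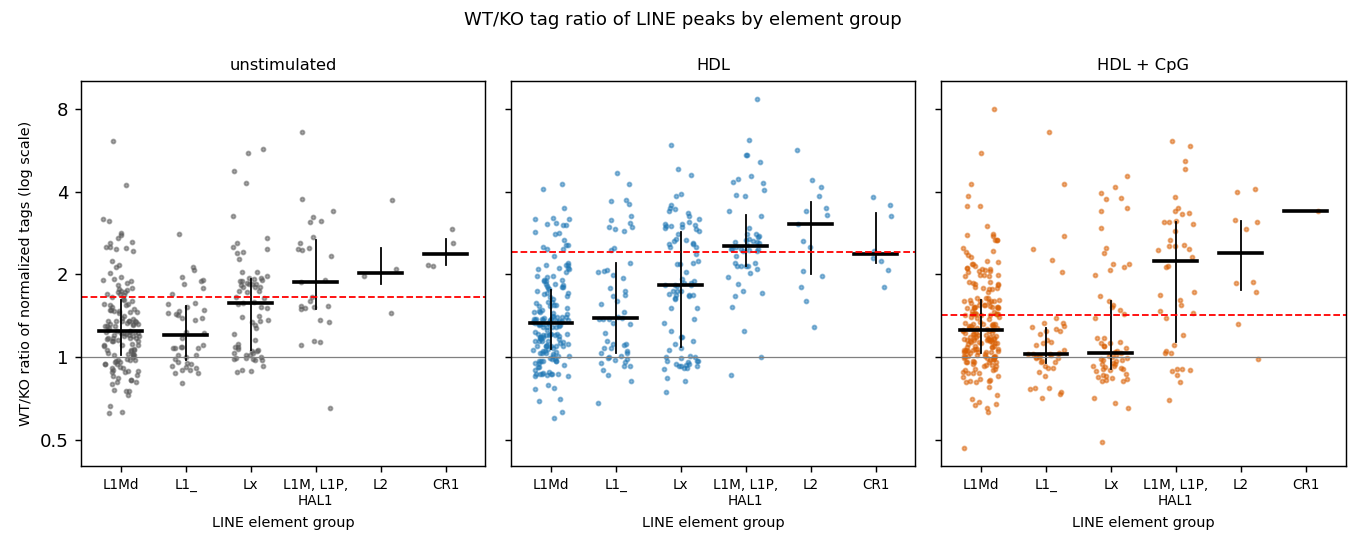
WT/KO ratio of normalized tags (y axis, log scale) of every LINE peak by element group (x axis), in 3 panels for unstimulated cells, HDL and HDL + CpG. Each dot is a peak, the black bar the median and the line the quartiles, and the red dashed line is the median of all standard peaks (1.66, 2.41 and 1.42). With HDL the medians run from 1.33 on L1Md to 3.05 on L2.

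Few element names carried most peaks. There were 54, 64 and 62 names, and L1Md_F2 was the most frequent in each condition, with 63, 75 and 78 peaks (3, 5 and 6 kept). L1Md_T followed with 33, 48 and 59 peaks (1, 4 and 6 kept) and L1Md_A with 28, 31 and 41 (0, 6 and 3 kept). A 51-base word at an L1Md_A peak occurred at a median of 2440, 3075 and 2263 places in the genome, one at an L1Md_T peak at 910, 1990 and 336, and one at an L1Md_F2 peak at 9, 6 and 14. L1Md_F3 held 11, 15 and 21 peaks, of which 0, 0 and 5 were kept. L1_Mm held 15, 13 and 13 peaks and L1_Mus2 14, 15 and 14. Among older names, Lx8 had 23 peaks with HDL, 11 of them kept, and Lx7 had 11, 12 and 10 peaks with 3, 4 and 2 kept. Lx9 had 13 in unstimulated cells with 3 kept and 12 with HDL with 7 kept, and L3 had 8 with HDL with 6 kept.

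Placement of reads moved with the element group. Within 100 bp of the peak centre, the share of 51-base words (the tag length) found once in the genome had a median of 36.4% at LINE peaks of unstimulated cells, 52.3% with HDL and 33.1% with HDL + CpG, against 86.1, 100 and 96.7% over all peaks. It was 17.9, 18.5 and 16.2% on L1Md and 87.4, 88.7 and 88.1% on Lx. Where at least 50% of the words were unique, 23 of 132 (17.4%), 89 of 202 (44.1%) and 41 of 150 (27.3%) LINE peaks were kept. Where fewer were unique, 5 of 162 (3.09%), 17 of 197 (8.63%) and 21 of 221 (9.50%) were kept. Over all standard peaks these shares were 25, 59.8 and 35.9% for mostly unique and 6.82, 28.3 and 7.47% for mostly repeated sequence. The share kept was thus lower at mostly unique LINE peaks than at mostly unique peaks in general.

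Within element groups, the division by uniqueness separated Lx but not L1Md. Of mostly unique Lx peaks 10 of 50, 28 of 62 and 12 of 43 were kept, and of mostly repeated ones 0 of 20, 0 of 24 and 0 of 22. However, 19, 23 and 22 Lx peaks lay in 1 interval of the X chromosome, described below. There 0 LINE peaks were kept and the median share of unique words was 0%. How many of the mostly repeated Lx peaks lay in it is not given here, so the division on Lx may rest largely on that interval. Of mostly unique L1Md peaks 1 of 26, 2 of 29 and 3 of 33 were kept, and of mostly repeated ones 3 of 117, 15 of 146 and 18 of 173. The part of read placement in the low share kept on L1Md was not tested.

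The AP-1 sequence TGAGTCA (its reverse complement is TGACTCA) was searched on both strands within 100 bp of the peak centre. Of the kept LINE peaks it stood at 11 of 28 without stimulus (39.3%), 21 of 106 after HDL (19.8%) and 13 of 62 after HDL + CpG (21%). At removed LINE peaks it stood at 4 of 266 (1.5%), 9 of 293 (3.07%) and 5 of 309 (1.62%). Windows 1000 bp to either side held it in 7.14, 5.66 and 3.23% for kept and in 1.88, 1.71 and 1.78% for removed LINE peaks. Kept LINE peaks had the sequence more often than their own flanks in each condition, and removed ones did so with HDL only. Over all standard peaks it was found at 25.6, 21.5 and 38.7% of kept and 5.12, 10.2 and 7.29% of removed peaks. Read the other way, 11 of 15, 21 of 30 and 13 of 18 LINE peaks with an AP-1 sequence were kept (73.3, 70 and 72.2%). Of all standard peaks with one, 56.5, 72 and 69.2% were kept. With HDL and HDL + CpG the share on LINEs was thus near the general share.

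The AP-1 sequences of kept LINE peaks lay mostly on old elements. On L1M, L1P, HAL1, L2, CR1 and RTE together, 9 of 14, 17 of 49 and 8 of 25 kept peaks had one. On L1Md, L1_ and Lx, 2 of 14, 3 of 56 and 5 of 37 kept peaks did, all of them on Lx. Among all Lx peaks 4 of 70, 8 of 86 and 6 of 65 had one, whereas on L1Md and L1_ 0 peaks did in each condition. The C/EBP-ATF sequence TGATGCAA (reverse complement TTGCATCA), which pairs the C/EBP and ATF recognition sites, was found at 3, 9 and 3 LINE peaks, of which 2, 6 and 3 were kept. These were 1.02, 2.26 and 0.809% of LINE peaks, against 2.27, 3.03 and 1.95% of all standard peaks. Of all standard peaks with this sequence 44.4, 64 and 56.8% were kept. The CRE, TGACGTCA, was found at 2 LINE peaks with HDL (0.501%) and at 0 in the other conditions. It was rare over all standard peaks too, at 0.252, 0.696 and 0.660%. A match describes the reference sequence and not a bound site.

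**Figure D4:**
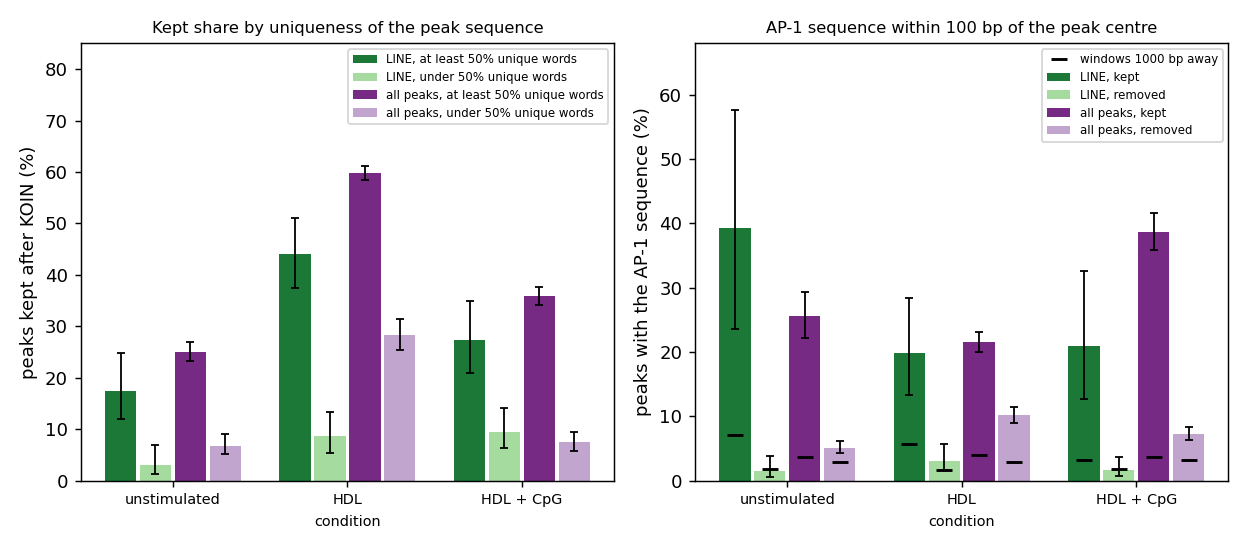
Left, share of peaks kept after KOIN (y axis, percent) for LINE peaks and all standard peaks with at least or under 50% unique words, in unstimulated cells, HDL and HDL + CpG. Right, share of peaks with the AP-1 sequence (y axis, percent) among kept and removed peaks; black dashes mark windows 1000 bp away, and error bars in both panels are Wilson 95% intervals. Kept LINE peaks had it in 39.3, 19.8 and 21% and removed ones in 1.5, 3.07 and 1.62%.

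LINE peaks lay farther from the nearest start site than all peaks did, by the median. A peak said to be near a gene has it as the nearest gene that HOMER gave, at any distance. They were intergenic in 234, 314 and 293 cases and intronic in 60, 85 and 78, and 0 were annotated to a promoter. Their median distance to the nearest start site was 108, 88.2 and 109 kb, against 45.9, 33 and 36.2 kb over all peaks. Kept LINE peaks were nearer, at 29.1, 30.1 and 47.0 kb, than removed ones at 113, 120 and 121 kb. The median GC content was 40.8% in each condition, against 47.3, 47.8 and 47.3% over all peaks. On the X chromosome lay 59, 66 and 65 LINE peaks (20.1, 16.5 and 17.5%, against 6.41, 3.93 and 5.73% of all peaks), and 1, 3 and 1 of them were kept.

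Many of the highest-scoring LINE peaks gathered in 1 interval of the X chromosome, the 6 Mb from position 120 Mb on, which was picked out after the values had been seen. It held 32, 35 and 35 LINE peaks on L1_Mus2, Lx3A, Lx2B and related elements, and 0 of them were kept. Their median WT/KO ratio was 1.01, 0.970 and 0.943, the median share of unique words was 0%, and 11, 10 and 10 of the 20 highest-scoring LINE peaks of each condition were among them. The WT library was called higher at 4, 1 and 0 of these peaks and the KO library at 1, 3 and 5. Peaks off LINEs in the interval are not given here, so these counts are not shown to be particular to LINEs. An L1_Mus2 peak in the interval (nearest gene 4932411N23Rik, 638 kb away) ranked among the top removed peaks in each condition. Of the words around its centre, 76.8, 94.7 and 94.7% were unique, unlike the median of the interval. It held 230 WT and 248 KO tags in unstimulated cells, 214 and 231 with HDL, and 215 and 224 with HDL + CpG. The KO value was above the WT value in each condition, and the ratios of 0.926, 0.927 and 0.959 were not called by the exact binomial test (adjusted p 0.0993, 0.0973 and 0.481). Its sequence is the second shown. The other removed peaks of highest score in the interval were also near equal, on L1_Mm and L1_Mus2 near 3110007F17Rik without stimulus (ratios 0.924 and 1.02), on Lx7 near 4932411N23Rik with HDL (0.930) and on L1_Mus2 near 3110007F17Rik with HDL + CpG (1.02). Of the Lx3A peaks with the vomeronasal receptor gene Vmn2r121 as nearest gene, 1 (756 kb away) was called KO-higher with HDL (108 WT and 132 KO tags, ratio 0.821). Another (639 kb away) was called KO-higher with HDL + CpG (106 and 129, ratio 0.820). Neither was called in the other conditions, where the ratios were 1.02 and 0.974 for the former and 0.927 and 0.971 for the latter.

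The peak with the most tags was on L1_Mur2 of chromosome 2, 98501970 to 98504802, far from its nearest gene Lrrc4c. With HDL it held 536457 WT and 974253 KO reads, or 141432 and 147476 tags, a ratio of 0.959 (exact 95% interval 0.956 to 0.962). The KO library was higher by a small factor with an adjusted p of 1.10e-131 from the exact binomial test, which covers counting error only. Of the 51-base words around the centre of this peak, 10.6% were unique in the genome. A peak on Lx of chromosome 5 (nearest gene Gm17019) was the KO-higher LINE peak with the lowest p in unstimulated cells, with 367 WT and 412 KO tags and a ratio of 0.891 (0.835 to 0.949). Peaks with a larger KO excess held fewer tags. They were on L1Md_F2 near Gm20268 and near 3110007F17Rik in unstimulated cells (ratios 0.633 and 0.627), on L1Md_F2 near Cmpk2 with HDL (10.0 and 16.6 tags, ratio 0.602), in the first intron of the vomeronasal receptor gene Vmn2r13 with HDL + CpG (7.48 and 16.0 tags, ratio 0.468), and on Lx7 of the Y chromosome with HDL + CpG (8.09 and 16.4 tags, ratio 0.493).

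A repeat other than the LINE itself stood under some peaks. Runs of at least 3 TTAGGG units, the sequence of telomeres, were present in 23 LINE peaks of unstimulated cells, 17 with HDL and 18 with HDL + CpG, and were looked for after the values had been seen. Their median WT/KO ratio was 1.83 (quartiles 1.61 and 1.92) in unstimulated cells, 2.88 (2.59 and 3.15) with HDL and 0.981 (0.879 and 1.02) with HDL + CpG. Of these peaks 1, 8 and 0 were kept, and 23, 16 and 0 were called higher in WT by the exact binomial test. With HDL + CpG 2 of the 18 were called higher in KO, near Rassf9 and Setd4 (ratios 0.845 and 0.840). Peaks with such runs off LINEs had medians of 1.76, 2.93 and 1.00, with 9 of 145, 122 of 158 and 0 of 146 kept. TTAGGG runs of at least 24 bases were in 7.82, 4.26 and 4.85% of LINE peaks (5.9, 3.2 and 4.25% of all peaks). LINE peaks with AC runs of that length had median ratios of 1.59, 2.03 and 1.02 (20, 35 and 20 peaks). With AG runs they were 1.41, 2.06 and 0.984 (16, 30 and 12 peaks). With A runs they were 1.03, 1.03 and 1.00 (26, 28 and 31 peaks). High ratios with HDL and level ones with HDL + CpG were thus not particular to TTAGGG. The 3 highest-scoring kept LINE peaks with HDL all held a TTAGGG run.

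**Figure D5:**
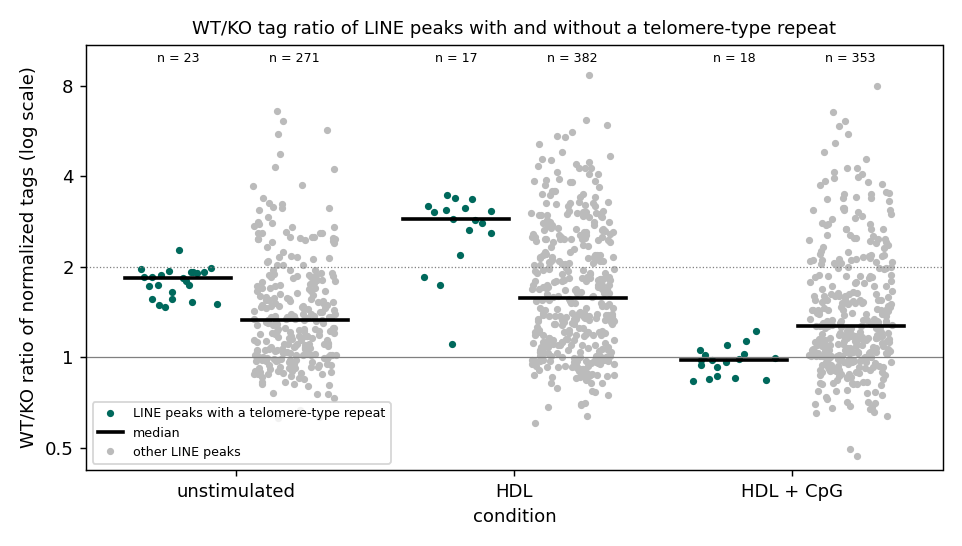
WT/KO ratio of normalized tags (y axis, log scale) of LINE peaks with a telomere-type repeat (23, 17 and 18 peaks) and without one (271, 382 and 353) in unstimulated cells, HDL and HDL + CpG (x axis). Each dot is a peak, with lines at a ratio of 1 and, dotted, of 2. The medians with a repeat were 1.83, 2.88 and 0.981.

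The highest of these, on L1_Mus2 378 kb from Tbl1xr1, a gene for a subunit of corepressor complexes, held 213 WT and 74.0 KO tags with HDL, a ratio of 2.88 (2.57 to 3.23, adjusted p 2.90e-77 by the exact binomial test). The Lx5 peak 682 kb from Marcks, whose protein is a substrate of protein kinase C, held 200 and 65.8 tags, a ratio of 3.04 (2.70 to 3.43). The L1Md_F2 peak near Mkx, which encodes the homeobox factor Mohawk, was present in each condition. It held 154 WT and 88.3 KO tags in unstimulated cells, 189 and 59.3 with HDL, and 118 and 119 with HDL + CpG, so that the WT library was higher with HDL and without stimulus and level with KO after HDL + CpG. Leaving out peaks with TTAGGG runs, 27 of 271, 98 of 382 and 62 of 353 LINE peaks were kept.

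At scores of at least 100, the LINE peaks kept were 0 of 55 without stimulus, 18 of 67 after HDL and 1 of 57 after HDL + CpG. Without the peaks with a telomere-type repeat these counts were 0 of 37, 10 of 55 and 1 of 44. The median WT/KO ratio of the latter was 1.02, 1.04 and 0.987. High scores on LINEs away from such repeats thus went with near-equal WT and KO tags. Of the 20 highest-scoring LINE peaks of each condition, 11, 10 and 10 lay in the X interval, where 0 were kept. The share over all standard peaks of such scores is not set beside these counts, so they are not shown to be particular to LINEs.

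The kept LINE peaks with the highest scores and no telomere-type repeat were mostly on old elements. In unstimulated cells the first was an L3 peak on chromosome 7, 129403336 to 129404254, 28.8 kb from Prkcb, the gene of protein kinase C beta. It held 18.6 WT and 6.35 KO tags, giving a ratio of 2.93 (1.99 to 4.32, adjusted p 1.08e-07 by the exact binomial test). The next were on L1MB3 near Mir466i (11.6 and 4.24 tags) and on Lx8 328 kb from Aga (12.1 and 4.90), the gene of a lysosomal hydrolase. Another was on L1MD 6.53 kb from Slc25a33 (11.6 and 4.63 tags, with an AP-1 sequence), the gene of a mitochondrial nucleotide carrier. All had at least 2-fold more WT than KO tags.

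With HDL, the L2 peak 49.0 kb from P4ha2, a gene for a collagen prolyl hydroxylase subunit, held 32.2 WT and 9.23 KO tags, giving a ratio of 3.48 (2.54 to 4.82, adjusted p 3.71e-15 by the exact binomial test). It was kept again with HDL + CpG, with 17.2 and 4.21 tags and a ratio of 4.08 (2.49 to 7.02). Its sequence above holds the C/EBP-ATF sequence 4 bp from the centre. The L2c peak 15.7 kb from P2ry2, a purinergic receptor gene, held 16.6 and 5.45 tags with HDL, with the AP-1 sequence 48 bp from the centre. The highest-scoring removed peak off X and off that Lrrc4c position was on L1Md_F2 in the first intron of Il31ra, an interleukin receptor gene, with 38.8 and 28.5 tags and a ratio of 1.36 (1.09 to 1.70). The removed L2 peak near Gm11110, with 16.1 and 8.17 tags, had a ratio of 1.97 and lay just under the 2-fold limit.

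With HDL + CpG the highest-scoring kept LINE peak was on L2c in the first of 23 introns of Ptprj (chromosome 2, 90382563 to 90383534), a receptor-type tyrosine phosphatase of leukocytes. It held 21.8 WT and 5.47 KO tags, giving a ratio of 3.99 (2.58 to 6.38, adjusted p 1.76e-10 by the exact binomial test), and had both an AP-1 and a C/EBP-ATF sequence. An L2c peak 10.7 kb from Lrp1, the gene of an endocytic receptor for lipoproteins, held 17.2 and 5.89 tags, and an Lx8 peak near BC005537 held 12.5 and 2.74. The highest-scoring removed peak of this condition, on L1_Mur2 of the Y chromosome, held 251 and 260 tags, and the third, on L1Md_F3 near 4930556G01Rik, held 172 and 182. Both had telomere-type repeats, and the L1_Mus2 peak of the X interval, between them by score, had none.

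Judged by the highest ratio rather than the score, and so chosen after the values were seen, the first peaks were an L1M2 peak in an intron of Itgam in unstimulated cells, an L1MB7 peak near Cacul1 with HDL and an L1Md_T peak near Nup35 with HDL + CpG. Itgam encodes the macrophage integrin CD11b, and its peak held 7.0 WT and 1.06 KO tags, giving a ratio of 6.60 (exact 95% interval 2.91 to 16.9), and an AP-1 sequence. The Cacul1 peak held 11.9 and 1.36 tags, a ratio of 8.72 (4.2 to 20.3). The Nup35 peak rested on 25 WT and 3 KO reads, a ratio of 8.02 (2.44 to 41.4), and none of its words (0%) was unique in the genome. KO reads at the 3 peaks numbered 8, 9 and 3.

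Overlapping LINE peaks of the 3 conditions merged into 746 sites, of which 525 were called in 1 condition, 124 in 2 and 97 in all 3. All standard peaks merged in the same way into 7275 sites, 4222 in 1 condition, 1523 in 2 and 1530 in all 3. Of the sites called in 1 condition 149 (28.4%) were kept in it, of those called in 2 conditions 28 (22.6%) in at least 1, and of those called in all 3 conditions 5 (5.15%). Over all standard peaks these shares were 53.3, 61.3 and 51.2%. Among the 97 recurrent sites 92 were never kept, and these included 54 on L1Md, 32 on X, 3 with a telomere-type repeat and 0 with an AP-1 sequence. No LINE site (0) was kept in all 3 conditions, against 70 of the 7275. The 5 recurrent sites kept at least once were near Slitrk5, Asap1, Setd4 and Mkx, all kept with HDL, and near Tmem178.

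The sites kept in 2 conditions were 14 of 746 on LINEs (1.88%), against 514 of 7275 over all standard peaks (7.07%). The 14 LINE sites included 0 on L1Md and 0 on L1_. They comprised 4 Lx, 3 L1M, 3 L2 and 4 L3 elements, 8 had an AP-1 sequence, 0 had a telomere-type repeat and the lowest share of unique words was 97.7%. Of these, 8 were kept with HDL and with HDL + CpG, near P4ha2, 2310043O21Rik, Pfpl, Mpeg1, Ptprj, F830045P16Rik, Il21r and Maf. Kept in unstimulated cells and with HDL were 5, near Has2as, Enthd1, Tmem178, Acvr2a and Prkcb, and 1 near Pde7b was kept without stimulus and after HDL + CpG. The L2 site near Tmem178 held 11.3 WT and 3.04 KO tags in unstimulated cells, 15 and 3.63 with HDL, and 8.69 and 5.05 with HDL + CpG, where its ratio of 1.72 was not called (adjusted p 0.0792, exact binomial test).

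Gene lists of macrophage function were looked up by the nearest gene that HOMER gave. For macrophage identity and receptor genes, 3 of 17 peaks in unstimulated cells were on a LINE (2 kept, near Clec4d and Itgam), 4 of 34 with HDL (3 kept, near Fcgr2b, Mpeg1 and Sirpa) and 1 of 23 with HDL + CpG (kept, near Mpeg1). LINE peaks thus made up 17.6, 11.8 and 4.35% of the peaks of this list, and 29.4, 61.8 and 65.2% of all its peaks were kept. Mpeg1 encodes the pore-forming protein perforin-2, and its Lx9 peak 15.6 kb away held 20.8 WT and 4.54 KO tags with HDL (ratio 4.59) and 12.7 and 3.37 with HDL + CpG (ratio 3.78). The Lx9 peak near Sirpa, the gene of an inhibitory receptor, was removed in unstimulated cells with 12.4 and 7.81 tags and kept with HDL with 14.8 and 4.54. Its ratio, 1.59 and then 3.25, was not called different by the exact conditional test (adjusted p 0.0778). Fcgr2b encodes the inhibitory Fc receptor, and the HAL1 peak 22.7 kb from it held 15.3 and 5.75 tags with HDL.

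Of the bZIP genes, Maf, which encodes a factor of macrophage identity, was the nearest gene of an L3 peak more than 100 kb away. This peak was kept with HDL (14.2 WT and 6.21 KO tags) and with HDL + CpG (14.4 and 4.21). In unstimulated cells 0 LINE peaks of the list were found. The bZIP list had 16, 32 and 29 peaks in all, of which 37.5, 56.3 and 65.5% were kept. Cytokine and chemokine genes had 0 LINE peaks in each condition, among 12, 23 and 20 peaks. The Toll-like receptor and NF-kB list, with 7, 20 and 17 peaks, had 1, a removed peak in an intron of Ikbkb in unstimulated cells. The lipid and cholesterol list had 2, both kept with HDL + CpG, near Fabp5, a fatty acid-binding protein gene (9.30 and 2.95 tags), and Lrp1. It had 5, 17 and 13 peaks in all, and 11 of the 13 (84.6%) were kept. LINE peaks made up 10.6, 7.5 and 9.79% of all standard peaks, so counts this small are not shown to differ from the general share. Olfactory and vomeronasal receptor genes, which lie in large clusters, had 24, 26 and 22 LINE peaks, of which 1, 0 and 0 were kept. Only 9, 12 and 7 of these LINE peaks lay within 100 kb of the gene. Of all peaks near these genes 4 of 92 (4.35%), 16 of 113 (14.2%) and 6 of 112 (5.36%) were kept, so the share was low there on LINEs and in general.

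The WT/KO ratios of overlapping LINE peaks were compared between conditions by an exact conditional test of the 4 read counts, adjusted over all overlapping pairs of standard peaks. Between unstimulated cells and HDL, 14 of 135 LINE pairs differed (10.4%), against 21.7% of all pairs, and 12 of the 14 were higher with HDL. Between unstimulated cells and HDL + CpG, 14 of 134 differed (10.4%, against 27.6%), and 0 were higher with HDL + CpG. Between HDL and HDL + CpG, 19 of 146 differed (13%, against 35.8%), and 2 were higher with HDL + CpG. The median change of the ratio was 1.06, 0.912 and 0.911 over LINE pairs and 1.26, 0.760 and 0.709 over all pairs, so LINE pairs moved in the same direction as all pairs and by less.

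Pairs with a telomere-type repeat made up 8 of the 14, 12 of the 14 and 8 of the 19 LINE pairs called, out of 10, 14 and 8 such pairs tested. Of the other pairs 6 of 125, 2 of 120 and 11 of 138 were called, and 5, 2 and 10 where p-values were adjusted over pairs without a repeat alone. Their median ratios hardly moved, from 1.08 to 1.08, from 1.09 to 1.03 and from 1.15 to 1.06, whereas pairs with a repeat went from 1.82 to 3.12, from 1.85 to 0.989 and from 2.95 to 0.959. Among called pairs without a repeat, the L1MC4a peak in the first intron of Por, the gene of cytochrome P450 reductase, had 9.42 WT and 6.88 KO tags in unstimulated cells and 10.3 and 1.67 with HDL. Its ratio went from 1.37 to 6.16 (adjusted p 0.00157, exact conditional test), and it was kept in neither condition. The L1MB1 peak in an intron of Osbpl3, which encodes an oxysterol-binding protein family member, had 12.9 and 7.72 tags with HDL and 12.9 and 2.11 with HDL + CpG. Its ratio went from 1.67 to 6.13 (adjusted p 0.00235, exact conditional test), with a kept peak after HDL + CpG. Both were chosen after their values were seen. In both pairs the WT values were close to each other and the KO value was lower in the second condition.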

How the data were processed

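ATF3 ChIP-seq was measured in WT and KO BMDMs in 3 conditions. Replicates were pooled by the authors before alignment to mm9. Alignment used Bowtie, peak calling MACS, and annotation HOMER. Versions given in the submitters' notes on processing are CASAVA 1.8, Bowtie 0.12.8, HOMER 4.3 and MACS 1.4.2, with an earlier MACS release in the methods. Of 7 deposited files, 6 are peak lists and the other lists barcodes. The score of a peak is the MACS score the authors deposited, used to rank and filter peaks within a list. The signal of a peak is the tag count that the authors normalized to 10000000 per library. A further column, the authors' WT/KO fold change, was not used, and 0 columns belonged to other samples.

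All tags lay within 0.005 of whole reads, which were recovered from the library totals (37137377 to 75534584) in the deposited headers. WT and KO reads were compared per peak by a two-sided exact binomial test, ratios between conditions by a two-sided exact conditional test, both adjusted by Benjamini-Hochberg over all standard peaks or pairs at 0.05. They compare libraries, not replicated conditions. Shares have Wilson 95% intervals, and intervals cover counting error only. Both tests were tested on simulated data. Sequences, motifs (windows of 100 bp to each side of the centre) and genome-wide counts of 51-base words came from NCBIM37, the assembly of mm9. Words were counted on both strands. The sequences of the kept peaks on L1 are not reported here.

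The 4 highest-scoring kept and removed LINE peaks of each condition, the 3 KO-higher peaks with the lowest p and the 3 sites with the lowest p per pair of conditions were to be named, with other peaks named as examples. Members, lists and tests were chosen with earlier results of these data known. Alternatives were score minimums of 60 and 100, at least 40 reads, an overlap of 50%, a pseudocount of 1 tag, another scaling, autosomes only, mostly unique peaks, 36-base words, a window of 50 bp and the whole peak. Leaving out TTAGGG runs or the X interval was added after seeing the data. Python 3.11.15, numpy 2.4.6, pandas 2.3.3, scipy 1.17.1, numba 0.67.0, pysam 0.24.0, matplotlib 3.10.9 and samtools 1.23.1 were used.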

Additional observations from a re-analysis of the deposited data

Results flagged for a closer look

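The WT/KO ratio of 9 LINE pairs differed between conditions with the lowest adjusted p of their comparison, by the exact conditional test. All 9 pairs held a telomere-type repeat. With HDL over unstimulated cells, the ratio changed 2.25-fold at L1MD near Mir148a, a microRNA gene (306 WT and 413 KO reads, then 417 and 214, adjusted p 1.79e-11). It changed 1.83-fold at L1Md_F2 near Mkx and 1.86-fold at Lx5 near Slitrk5. With HDL + CpG over unstimulated cells, the factor was 0.458 at Lx3_Mus near Rassf9 (535 and 589 reads, then 500 and 568, adjusted p 7.57e-18), 0.538 at Lx4A near Lrrn3 and 0.455 at Lx9 near Setd4. With HDL + CpG over HDL it was 0.312 at L1Md_F2 near Mkx (717 and 392 reads, then 584 and 565, adjusted p 1.62e-40), 0.331 at Lx7 near Tbc1d2b and 0.315 at Lx5 near Slitrk5. The ratio was highest with HDL and lowest with HDL + CpG at the Mkx and Slitrk5 sites, which were in 3 conditions. Whether the repeat, the library or ATF3 itself sets these differences was not tested, and with 1 pooled library per group they cannot be told apart from differences between libraries.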

How the results depend on the processing

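Of 117 alternative values, 71 moved by less than the interval of the reported value, 45 moved by more and 1 changed direction; the cause was not tested. At a score of at least 60, the share kept was 5.60% in unstimulated cells and 9.46% with HDL + CpG, 3.59% of HDL peaks were KO-higher and 10.1% of HDL + CpG peaks WT-higher. At a score of at least 100 the share kept was 0% in unstimulated cells and 1.75% with HDL + CpG, and the median ratio was 1.10, 1.12 and, changing direction with HDL + CpG, 0.974. At that score without TTAGGG runs, 0, 18.2 and 2.27% were kept. Among mostly unique peaks 17.4, 44.1 and 27.3% were kept, 57.6, 74.8 and 38.7% were WT-higher, 0% of HDL peaks were KO-higher, the median ratio was 1.6, 2.2 and 1.32, and 7.08 and 4.59% of removed peaks had an AP-1 sequence with HDL and HDL + CpG. On autosomes only, 56.3 and 27.2% were WT-higher with HDL and HDL + CpG, and 0.993% were KO-higher with HDL + CpG; without the X interval that last share was 1.19%. With tags scaled to satellite, simple repeat and rRNA peaks, 25.9% of unstimulated peaks were WT-higher and 5.78% KO-higher, with a median ratio of 1.22. Without TTAGGG runs 31.7% of unstimulated peaks were WT-higher, and, with p-values adjusted over the pairs left, 5, 2 and 10 pairs differed between conditions (unstimulated and HDL, unstimulated and HDL + CpG, HDL and HDL + CpG). In windows of 50 bp, 17.9, 8.49 and 9.68% of kept peaks had an AP-1 sequence, 0.324% of removed peaks had one with HDL + CpG, and the unique share there was 21.6%. Over the whole peak 7.14, 7.51 and 6.15% of removed peaks had one. With 36-base words the unique share was 20.5, 30.7 and 16.9%.

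No paired analysis was possible because each group is 1 pooled library. Likewise, no replicate can be left out. A LINE peak that was not called is not shown to be equal in WT and KO. Reads of near-identical copies were placed at their best position by the authors, and the copy of origin is unknown.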
